A study of Mus musculus with 30 samples.

Results

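CCL206 mouse lung fibroblasts that had been co-cultured with lung epithelial cells and exposed to TGF-β were compared with fibroblasts from the same kind of co-culture given vehicle. The comparison held 7 of the 30 RNA-seq libraries of the series, chosen from GEO's labels as those of the cell line CCL206 with the treatment TGFb (n = 4, mice 1 to 4) or Vehicle (n = 3, mice 1, 3 and 4). CCL206 is 1 established line, labelled wild type (WT), whose proliferation was stopped with mitomycin C, so every library came from the same fibroblasts. The mouse number names the adult C57BL/6J donor of the Epcam+ epithelial cells that shared the Matrigel, and an n of 4 therefore counts epithelial donors and cultures, not fibroblast donors. TGF-β was given at 2 ng/ml for 72 hours, in medium that contained the small molecule Y-27632 for vehicle and TGF-β cultures alike, and the fibroblast fraction was the cells that did not bind Epcam (CD326) beads afterwards. CCL206 cultures given IPFc (n = 4), a cocktail of TGF-β with TSLP, TNFα, CCL2 and the interleukins IL-33, IL-13, IL-8, IL-4 and IL-1β, or EC (n = 4), a cocktail of IL-6, IL-8, IL-1β and TNFα by the labels (the study's methods name KC instead of IL-8 for murine cultures), entered the same model and served as further points of reference, and the 15 Epcam+ libraries gave the level of each gene in the epithelial fraction. A vehicle fibroblast library of mouse 2 was not analysed here. The titles of 1 vehicle and 2 TGF-β libraries end in an R that the labels do not explain, and the part this plays in the results was not tested.

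TGF-β is stored in the matrix in a latent form and is released largely by integrins that contain the αv chain. It signals through the type I receptor TGFBR1 and the type II receptor TGFBR2 to SMAD2 and SMAD3, which enter the nucleus with SMAD4. In lung fibroblasts the pathway is best known for the myofibroblast state, in which cells build smooth muscle actin fibres, secrete collagen and fibronectin and, in fibrosis, stiffen the alveolar wall. Fibroblasts are also the niche of alveolar progenitors, which they supply with factors such as FGF10, FGF7, HGF and Wnt ligands.

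The Epcam- fractions were not pure fibroblasts. Reads per library lay between 12710217 and 15606559 in vehicle and between 12312269 and 16668879 in TGF-β libraries, so depth did not separate the groups. The share of epithelial RNA, estimated from epithelial markers as the median ratio to the Epcam+ library of the same mouse and treatment, was 18.9%, 17.3% and 31.4% in the vehicle libraries of mice 1, 3 and 4. In TGF-β libraries it was 1.36%, 2.88%, 1.03% and 3.804% for mice 1 to 4. Every vehicle library therefore held more epithelial RNA than any TGF-β library, with a difference of -20.3 percentage points between the means of 2.27% ± 1.30 (SD, n = 4) and 22.5% ± 7.72 (SD, n = 3). The exact two-sided permutation p was 0.0571, the smallest that 4 against 3 libraries allow. A second measure, which takes Y-linked reads as epithelial, gave 18.9% to 24.1% in vehicle and 0.504% to 2.48% in TGF-β libraries. In bulk RNA, fewer epithelial cells and less RNA per epithelial cell cannot be told apart. The Epcam+ reference of the TGF-β cultures itself held RNA of the fibroblast marker Col1a1. Its mean there was 1129 CPM (read counts scaled to a common library total) against 80.9 CPM in Epcam+ vehicle libraries. Carried-over fibroblast RNA and expression by the epithelial cells cannot be told apart in these libraries. The TGF-β culture of mouse 1 had no Epcam+ library and was set against the mean of the other 3.

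**Figure D1:**
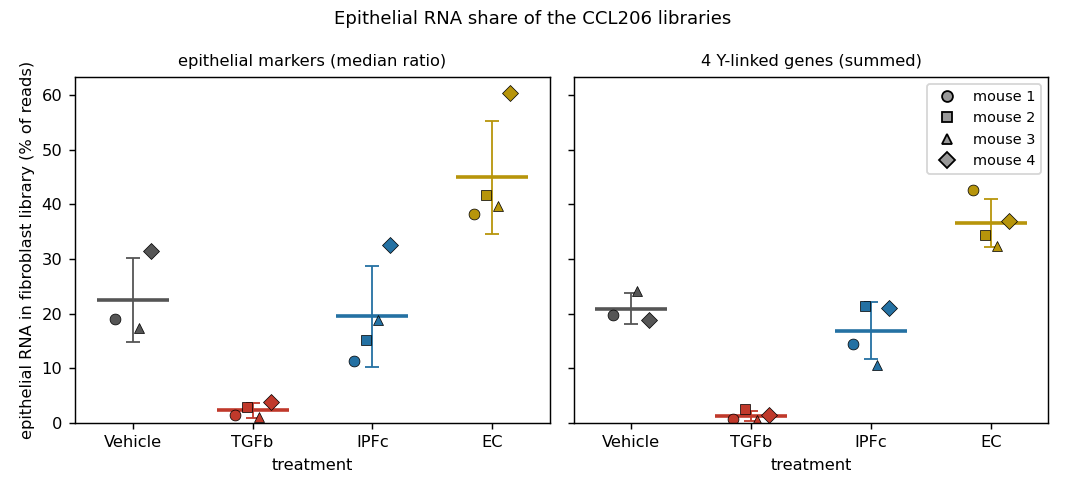
Epithelial RNA as a percentage of reads in the 15 CCL206 libraries, by treatment, estimated from epithelial markers (left) and from Y-linked genes (right). Points are libraries, with a symbol for each mouse, and bars are group means. The 4 TGFb libraries lie between 1.03% and 3.804% in the left panel and the 3 Vehicle libraries between 17.3% and 31.4%.

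Marker lists of the cell types such a fraction could hold moved as follows. The 37 epithelial markers summed to 9091 to 13769 CPM in vehicle and 324 to 901 CPM in TGF-β libraries, and 36 of them were lower with TGF-β. The 30 fibroblast markers summed to 21159 to 24679 CPM and 43661 to 48573 CPM respectively, although Thy1 and Tcf21 were at 0 in all 7 libraries. Immune markers summed to 86.3 to 138 CPM against 28.1 to 43.0 CPM, smooth muscle and pericyte markers to 232 to 322 against 515 to 610 CPM, mesothelial markers to 189 to 306 against 102 to 172 CPM and endothelial markers to 44.7 to 52.9 against 48.6 to 70.7 CPM. Of these lists, 2 of 10 mesothelial markers (Upk3b and Calb2), 3 of 12 smooth muscle and pericyte markers (Kcnj8, Higd1b and Trpc6) and 5 of 18 endothelial markers (Erg, Cldn5, Emcn, Robo4 and Sox17) were at 0 in all 7 libraries. Other members were called, with 3 of 11 tested endothelial markers higher and 2 lower, 3 of 8 smooth muscle and pericyte markers higher, 1 of 5 mesothelial markers lower, and 1 of 22 immune markers higher and 3 lower. Over all genes tested 6.39% were higher and 12.8% lower. The part of these cell types in the results was not tested. The part that the epithelial share plays in each result was addressed with 2 measures that are printed where they matter: the percentage of a gene's vehicle level that epithelial RNA could supply (share times Epcam+ level, which can exceed 100% because the share is a median over markers), and a fit after that part had been subtracted from every library. The latter was made over the 15 CCL206 libraries and again over the 7 vehicle and TGF-β libraries alone, which called more genes, and both are usually given where a gene's value after subtraction is printed.

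Against vehicle, 3457 of 18048 genes tested (19.2%) were differentially expressed with TGF-β at an adjusted p under 0.05 (edgeR quasi-likelihood test with the mouse as a block, Benjamini-Hochberg over all tested genes), 1154 higher (6.39%) and 2303 lower (12.8%). With a log2 fold change past 1 in size as well, 438 genes were higher (2.43%) and 1718 lower (9.52%). The counts of list members called below stand beside the 6.39% higher and 12.8% lower of all genes. The 2 directions of change stood differently towards epithelial RNA. Of the 438 genes, 259 had less than 10% of their vehicle level from epithelial RNA by this estimate, 131 had 10% to 50%, 26 had more and 22 had no vehicle level to divide by. Of the 1718 genes, 1008 had more than 50%, 446 had 10% to 50% and 264 had less than 10%. Among the 9997 tested genes that were higher in fibroblast than in Epcam+ vehicle libraries, called fibroblast-high here, 898 (8.98%) were higher and 713 (7.13%) lower with TGF-β. After subtraction of the epithelial part 828 genes passed the test, 241 higher and 587 lower, of which 793 were among the 3457. By the mean shares, the lower epithelial share would by itself raise the CPM of a gene borne by the fibroblasts by 0.34 on the log2 scale. The 1695 genes counted as borne by the fibroblasts had a median log2 fold change of 0.073. The part that this plays in the smaller rises was not tested. Scaling to genes borne by the fibroblasts instead of all genes left 3391 calls but split them into 696 higher and 2695 lower, and moved the median log2 fold change of all genes from -0.016 to -0.157.

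**Figure D2:**
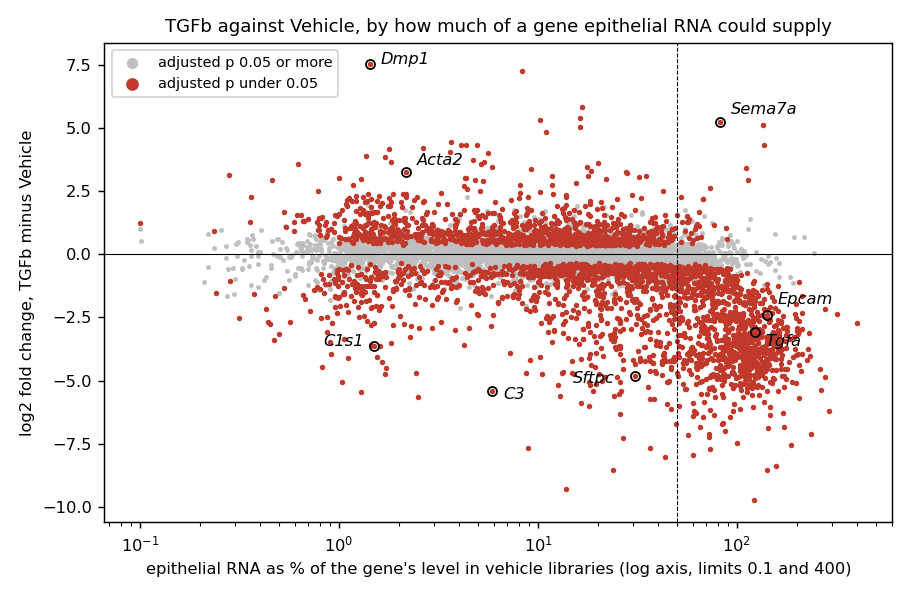
Log2 fold change (TGFb minus Vehicle) of 13256 genes over 1 CPM, against the percentage of each gene's vehicle level that epithelial RNA could supply (log axis). Red points have an adjusted p under 0.05, the dashed line marks 50%, and most of the strongly lower genes lie to its right while Acta2, Dmp1, C1s1 and C3 lie under 10%.

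The contractile genes of myofibroblasts rose far more often than they fell, and all of the risen ones were fibroblast genes. Of 39 members tested, 19 were higher and 2 lower (against 6.39% and 12.8% of all genes), with a median log2 fold change of 0.54 against -0.016 over all genes, and each of the 19 was lower in Epcam+ than in fibroblast vehicle libraries. Acta2 (ENSMUSG00000035783), smooth muscle α-actin and the usual marker of the myofibroblast, was at 55.7, 55.9 and 43.5 CPM in the vehicle libraries of mice 1, 3 and 4 and at 489.7, 398, 577 and 339.9 CPM in the TGF-β libraries of mice 1 to 4. The lowest TGF-β library was thus far above the highest vehicle library, a separation that 28.1% of all tested genes showed in one direction or the other, with a difference of 3.25 ± 0.14 (SE) on the log2 scale and an adjusted p of 7.03e-11. Epithelial RNA could supply 2.17% of its vehicle level. Tagln (transgelin, an actin-binding protein of smooth muscle) went from 8.65, 8.13 and 2.88 CPM to 115, 88.7, 121 and 72.95 CPM (log2 fold change 4.22 ± 0.20, adjusted p = 3.95e-10). The enteric smooth muscle actin gene Actg2 was at 1.73, 1.01 and 0.128 CPM in vehicle and 18.9, 13.1, 19 and 11.6 CPM in TGF-β libraries (log2 fold change 4.34 ± 0.40, adjusted p = 3.64e-07). Both started from low levels and were higher in each of the 4 TGF-β libraries than in any vehicle library.

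Further members named here act in the same fibres. Myl9, a regulatory light chain of myosin, was at 21.1, 17.7 and 14.9 CPM in vehicle and 68.3, 65.4, 88.9 and 58.9 CPM in TGF-β libraries (log2 fold change 2.09 ± 0.18, adjusted p = 1.99e-07). Cald1, caldesmon, which binds actin and tropomyosin, was at 394, 459.7 and 367 CPM and 1109, 989, 1117 and 855 CPM (log2 fold change 1.45 ± 0.11, adjusted p = 6.33e-08). Palld, palladin, an actin cross-linker, had 61.2, 69.6 and 69.7 CPM and 213, 161, 182 and 161 CPM (log2 fold change 1.56 ± 0.15, adjusted p = 6.35e-07). None of these groups overlapped. Cnn1, calponin, remained under 1 CPM in vehicle (0.0787, 0.387 and 0.128) and reached 3.57, 3.57, 3.98 and 2.76 CPM with TGF-β (log2 fold change 4.06 ± 0.63, adjusted p = 1.23e-04), and Ldb3, a Z-disc protein of muscle, had 2.12, 2.63 and 1.41 and 8.93, 6.04, 6.31 and 4.14 CPM (log2 fold change 1.67 ± 0.27, adjusted p = 2.04e-04). Tnnt2, the cardiac troponin T gene, was not on the list and was among the genes with the smallest adjusted p, at 8.26, 7.43 and 6.47 CPM in vehicle and 139, 99.7, 142 and 136 CPM in TGF-β libraries (log2 fold change 4.34 ± 0.18, adjusted p = 7.03e-11). The 2 members that fell, named after their values were seen, were Mylk, the myosin light chain kinase, at 63.8, 76.2 and 73.1 CPM against 27.2, 27.1, 32.4 and 31.2 CPM (log2 fold change -1.20 ± 0.14, adjusted p = 5.10e-06), and Fhl1, a LIM protein of muscle (log2 fold change -0.55 ± 0.15, adjusted p = 0.0142), whose call was lost without mouse 2, 3 or 4. After subtraction of the epithelial part in the 7 libraries alone, 13 members were higher and 1 lower.

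Many contractile genes are known targets of serum response factor, which binds the CArG box. For that reason promoters are shown, but only of contractile members that rose and whose window held a match. Every promoter shown therefore has a match by choice, and the counts over all members follow the sequences. Windows of 250 bases before the RefSeq start listed first for a gene (build GRCm38.p6) were matched by symbol to 35 of the 40 listed genes, without Actg2, Tagln, Myh11, Csrp2 and Myocd. The start listed first need not be the outermost, so a window can lie partly or wholly within the annotated gene. That of Ldb3 lies wholly within it, and those of Acta2 and Myl9 lie partly within it. Capitals mark CArG boxes on either strand, with at most 1 G or C allowed in the A/T core, and the windows are given 5′ to 3′ on the strand of the gene. The windows of Fhl2 and Mrtfa were chosen after their values were seen. The window of Acta2 is at chr19:34255374-34255623 (minus strand), that of Myl9 at chr2:156775214-156775463 (plus) and that of Ldb3 at chr14:34588682-34588931 (minus). The window of Fhl2, a LIM protein (log2 fold change 1.42 ± 0.15, adjusted p = 1.27e-06), is at chr1:43196762-43197011 (minus). That of Mrtfa, the actin-sensing coactivator of serum response factor, is at chr15:81190737-81190986 (minus). Mrtfa had a log2 fold change of 0.54 ± 0.18 (adjusted p = 0.0409, 0.35 with an adjusted p of 0.763 after subtraction, and 0.44 with 0.318 in the 7 libraries alone, and an adjusted p of 0.365 without mouse 3).
Acta2: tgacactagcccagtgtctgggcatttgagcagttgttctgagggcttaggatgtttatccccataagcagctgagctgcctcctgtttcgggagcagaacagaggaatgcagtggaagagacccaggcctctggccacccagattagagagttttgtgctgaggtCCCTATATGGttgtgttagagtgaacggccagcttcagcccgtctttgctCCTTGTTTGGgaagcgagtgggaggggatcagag
Myl9: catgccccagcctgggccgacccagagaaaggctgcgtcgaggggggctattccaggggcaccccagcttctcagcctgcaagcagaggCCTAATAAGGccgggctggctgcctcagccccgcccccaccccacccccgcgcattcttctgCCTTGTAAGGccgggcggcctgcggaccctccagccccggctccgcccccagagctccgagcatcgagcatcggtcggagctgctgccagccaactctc
Ldb3: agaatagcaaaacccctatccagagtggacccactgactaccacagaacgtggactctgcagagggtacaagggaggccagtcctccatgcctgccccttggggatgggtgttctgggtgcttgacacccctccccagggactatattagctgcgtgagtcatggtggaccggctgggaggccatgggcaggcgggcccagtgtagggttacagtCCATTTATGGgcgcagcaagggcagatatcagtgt
Fhl2: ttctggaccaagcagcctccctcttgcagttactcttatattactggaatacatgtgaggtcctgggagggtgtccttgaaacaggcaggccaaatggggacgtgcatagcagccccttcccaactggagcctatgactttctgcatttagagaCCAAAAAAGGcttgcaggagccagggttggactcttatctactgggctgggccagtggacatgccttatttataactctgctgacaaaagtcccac
Mrtfa: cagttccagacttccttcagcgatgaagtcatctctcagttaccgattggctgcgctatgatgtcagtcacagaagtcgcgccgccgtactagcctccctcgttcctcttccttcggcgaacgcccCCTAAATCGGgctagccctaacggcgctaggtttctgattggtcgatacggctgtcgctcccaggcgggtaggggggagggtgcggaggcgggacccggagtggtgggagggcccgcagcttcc
A strict CArG box was found in 8 of the 35 windows (22.9%), against 1.15% of the 12154 windows of tested genes. Among the 16 members with a window that rose it was in 3 (18.8%), and among the 19 that did not in 5 (26.3%). With 1 G or C allowed, 10 of the 35 windows (28.6%) held a match against 8.19% of tested genes, 5 of the 16 risen members (31.2%) and 5 of the other 19 (26.3%). Acta2 and Myl9 each had 2 such matches. The letters CATTCC, bound by TEAD factors, were in 31.4% of the 35 windows and 11% of tested genes' windows, and CAGAC, a SMAD-binding element, in 37.1% and 41.1%. Members that rose and members that did not thus differed by few genes in how often they held a box, and that difference was not tested. A match is a description of the letters in this window and not a shown site.

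**Figure D3:**
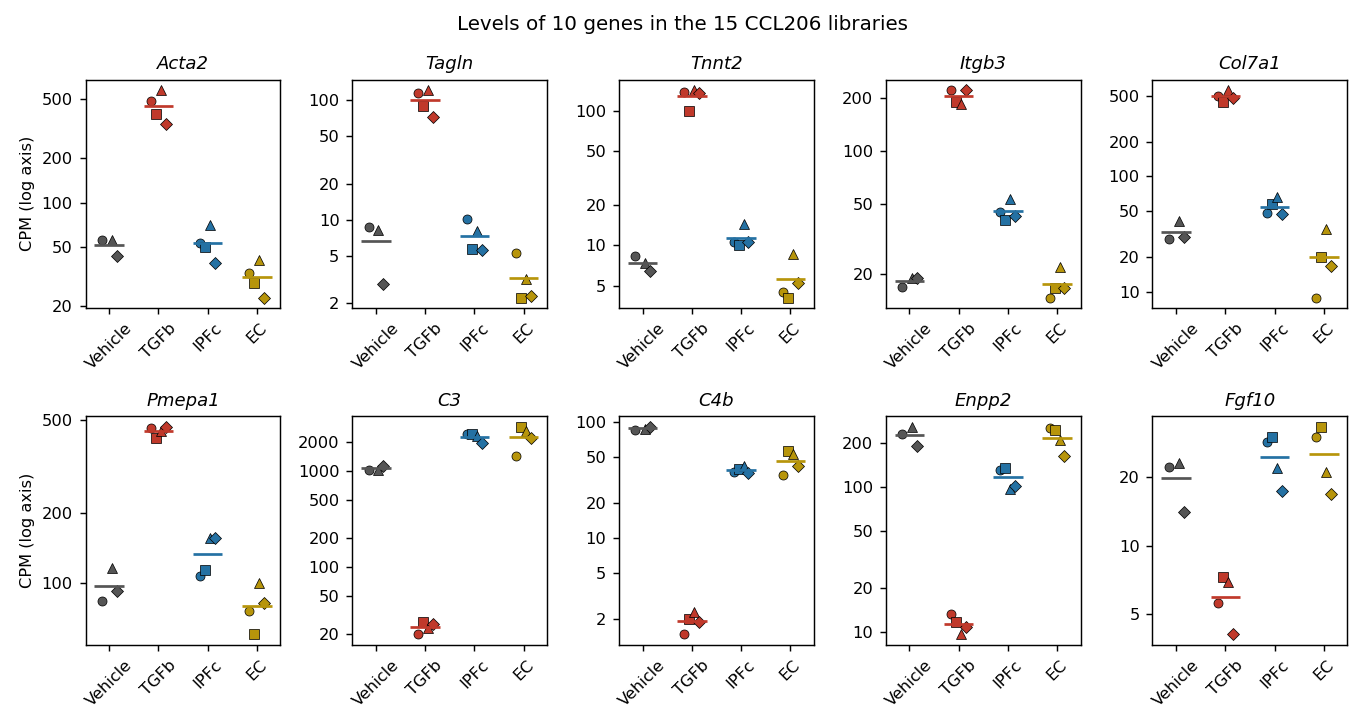
CPM (log axis) of 10 genes in the 15 CCL206 libraries, by treatment, with a point for each library. The 4 TGFb libraries stand above all other libraries for Acta2 (339.9 to 577 CPM), Tagln, Tnnt2, Itgb3, Col7a1 and Pmepa1, and below all others for C3 (20.1 to 26.7 CPM), C4b, Enpp2 and Fgf10.

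Genes for making and releasing TGF-β family ligands changed in both directions. Of 17 members tested, 7 rose and 4 fell (against 6.39% and 12.8% of all genes), with a median log2 fold change of 0.27. Tgfb1, the main ligand, was at 53.4, 50.8 and 65.9 CPM in vehicle and 130.2, 119, 136 and 178 CPM in TGF-β libraries (log2 fold change 1.44 ± 0.14, adjusted p = 5.77e-07). Inhba, which encodes the activin A chain, had 69.6, 112 and 57.6 and 242, 271, 223 and 169.8 CPM (log2 fold change 1.60 ± 0.15, adjusted p = 4.38e-07). Neither group overlapped. Tgfb3 was 0.76 ± 0.13 on the log2 scale above vehicle (adjusted p = 3.32e-04), whereas Tgfb2 fell (log2 fold change -0.66 ± 0.19, adjusted p = 0.0216), with 74.7% of its vehicle level within reach of epithelial RNA and a change of sign after subtraction.

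Of the integrin chains that free latent TGF-β, Itgb3 and Itgb5 showed the largest rises of this list. Itgb3, the β3 chain, went from 16.9, 18.96 and 18.97 CPM in vehicle to 223, 189.8, 187 and 222 CPM with TGF-β (log2 fold change 3.65 ± 0.15, adjusted p = 7.66e-11). Itgb5, the β5 chain, had 233, 195 and 186 CPM and 654, 537, 605 and 684 CPM (log2 fold change 1.75 ± 0.13, adjusted p = 3.83e-08). Each TGF-β library exceeded each vehicle library for both chains. Itgav, the αv chain they share, was at 219, 265 and 192 CPM and 418, 409, 327 and 264 CPM, and its groups touched, since the TGF-β library of mouse 4 lay just below the vehicle library of mouse 3 (log2 fold change 0.71 ± 0.14, adjusted p = 0.00108, 0.58 with an adjusted p of 0.12 after subtraction, and 0.58 with 0.113 in the 7 libraries alone). Itgb6, the epithelial partner of αv, was lower (log2 fold change -1.88 ± 0.37, adjusted p = 0.00132), and 103% of its vehicle level could come from epithelial RNA. Over all 18 integrins tested, 6 were higher and 4 lower (against 6.39% and 12.8% of all genes). The 6 were all among the 8 members that were higher in fibroblast than in Epcam+ vehicle libraries, and none of those 8 fell. Itga11, the collagen receptor chain of fibroblasts, was one of them, with 3.86, 4.57 and 4.101 CPM against 15.4, 13.9, 12.7 and 12.1 CPM (log2 fold change 1.77 ± 0.29, adjusted p = 2.15e-04, 1.55 with an adjusted p of 0.106 after subtraction, and 1.58 with 0.00539 in the 7 libraries alone). Ltbp2, a latent TGF-β binding protein homologue, fell from 1606, 1835 and 1922 CPM to 921, 939, 1112 and 995 CPM (log2 fold change -0.76 ± 0.16, adjusted p = 0.00239, 0.0504 without mouse 4). Ltbp1 had a log2 fold change of -0.35 ± 0.12 with an adjusted p of 0.0468, a call that 9 of 17 alternatives did not keep.

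Of 17 receptors and SMADs, 1 rose and 3 fell, near the 6.39% higher and 12.8% lower of all genes. Tgfbr2, the ligand-binding receptor, was at 162, 188 and 196 CPM in vehicle and 185, 196, 189 and 165 CPM in TGF-β libraries, and the groups overlapped (log2 fold change 0.11 ± 0.15, adjusted p = 0.71, with a negative sign when scaled to fibroblast-borne genes). Tgfbr1, the kinase receptor, had 42.5, 54.2 and 39.2 and 36.7, 38.1, 27.6 and 25.7 CPM (log2 fold change -0.47 ± 0.17, adjusted p = 0.0731). Of 17 alternatives 5 called Tgfbr1 lower, with the largest fall without mouse 1 (-0.62, adjusted p = 0.0045) and a call also in the 7 libraries alone with the mouse block (-0.47, adjusted p = 0.0426), whereas subtraction in those libraries turned its sign (0.15, adjusted p = 0.874). Tgfbr3, betaglycan, which presents the ligand, fell from 249, 295 and 242 CPM to 86.01, 98.1, 87.1 and 77.4 CPM (log2 fold change -1.56 ± 0.13, adjusted p = 1.27e-07). The groups were far apart. Smad3, the signal carrier, fell from 220.2, 275 and 239.6 CPM to 124, 157, 170.1 and 123 CPM (log2 fold change -0.73 ± 0.15, adjusted p = 0.00165). Smad9, a BMP pathway SMAD, was at 4.96, 6.65 and 5.57 and 1.22, 1.44, 1.84 and 2.34 CPM (log2 fold change -1.62 ± 0.38, adjusted p = 0.0047, -1.99 with an adjusted p of 0.0811 after subtraction, and -1.89 with 0.0105 in the 7 libraries alone, and an adjusted p of 0.0856 without mouse 3), and Acvrl1, the type I receptor ALK1, rose (log2 fold change 0.77 ± 0.14, adjusted p = 4.80e-04, 0.44 with an adjusted p of 0.163 after subtraction, and 0.50 with 0.211 in the 7 libraries alone).

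Established targets and feedback genes of the pathway were mixed, with 14 of 30 higher and 8 lower and a median log2 fold change of 0.45. Among the 21 members that were higher in fibroblast than in Epcam+ vehicle libraries, 12 rose and 3 fell. Pmepa1, a feedback inhibitor that holds SMADs away from the receptor, was at 83.8, 116 and 92.4 CPM in vehicle and 459, 416, 447 and 466 CPM with TGF-β (log2 fold change 2.41 ± 0.14, adjusted p = 3.51e-09). Il11, a cytokine of the IL-6 family, had 3.15, 2.71 and 2.37 and 10.2, 12.4, 12.6 and 14.5 CPM (log2 fold change 2.39 ± 0.29, adjusted p = 8.54e-06). Both separated the groups fully. Ccn2, the connective tissue growth factor gene, was at 22.7, 35.4 and 32.2 CPM and 108, 158, 133 and 75.4 CPM (log2 fold change 2.21 ± 0.30, adjusted p = 3.23e-05), with 67.4% of the vehicle level open to epithelial RNA. Its log2 fold change was 4.06 with an adjusted p of 0.104 after subtraction, and 3.32 with 2.69e-04 in the 7 libraries alone. Nuak1, a kinase, rose too (log2 fold change 1.30 ± 0.19, adjusted p = 8.70e-05, 1.07 with an adjusted p of 0.0852 after subtraction, and 1.05 with 0.041 in the 7 libraries alone).

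Smad7, the inhibitory SMAD and a common readout of the pathway, was at 34.9, 44.7 and 69.9 CPM in vehicle and 44.8, 50.5, 80.7 and 76.2 CPM in TGF-β libraries. The groups overlapped, and the gene was higher with TGF-β in 3 of 3 mouse pairs, but its adjusted p was 0.158 (log2 fold change 0.45 ± 0.21). Of 17 alternatives 3 called it higher, namely the 7 vehicle and TGF-β libraries alone with the mouse block (0.57, adjusted p = 0.00549), the fit without EC libraries (0.53, adjusted p = 0.00718) and the fit with no filter on low counts (0.46, adjusted p = 0.0402). Edn1, endothelin, was lower (log2 fold change -2.57 ± 0.27, adjusted p = 2.00e-06), with 102% of its vehicle level within the epithelial share.

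In the BMP branch, 5 of 22 members were higher and 8 lower (against 6.39% and 12.8% of all genes), and 5 of those 8 were not fibroblast-high genes. Bmp4, a BMP ligand, fell from 24, 19.96 and 26.1 CPM to 3.82, 3.98, 3.86 and 5.04 CPM (log2 fold change -2.37 ± 0.18, adjusted p = 5.27e-08), and epithelial RNA could supply 79.2% of the vehicle level. The Id genes are transcriptional repressors that BMP signals induce, and Id4 was at 2.596, 3.64 and 4.55 CPM and 0.406, 0.687, 0.613 and 0.5999 CPM (log2 fold change -2.53 ± 0.35, adjusted p = 4.07e-05). The log2 fold change of Bmp4 was -0.80 with an adjusted p of 0.46 after subtraction, and -0.59 with 0.505 in the 7 libraries alone. For Id4 it was -2.43 with an adjusted p of 0.105 after subtraction, and -2.47 with 0.027 in the 7 libraries alone. Fstl3, a follistatin-like binder of activin, rose from 2.75, 4.57 and 4.93 to 9.503, 7.56, 10.7 and 8.88 CPM (log2 fold change 1.30 ± 0.23, adjusted p = 3.92e-04).

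Collagen genes changed in both directions. Of 35 tested, 14 were higher and 7 lower, with a median log2 fold change of 0.51. The fibrillar chains named here rose. Col1a1, the main chain of collagen I, was at 1397, 1254 and 1394 CPM in vehicle and 3985, 3672, 4915 and 4125 CPM in TGF-β libraries (log2 fold change 1.74 ± 0.15, adjusted p = 2.43e-07). Col5a3, a chain of collagen V, had 5.27, 2.71 and 4.998 CPM and 34.6, 29.4, 32.7 and 24.5 CPM (log2 fold change 2.97 ± 0.28, adjusted p = 4.43e-07). Col11a1, of the minor fibrillar collagen XI, had 8.81, 14.4 and 11.3 and 55.8, 43.8, 51.7 and 30.2 CPM (log2 fold change 2.05 ± 0.20, adjusted p = 9.18e-07). The largest step was that of Col7a1, the anchoring fibril collagen of basement membrane zones, at 28.7, 40.9 and 30.2 CPM in vehicle and 493, 443, 557 and 476 CPM with TGF-β (log2 fold change 4.03 ± 0.22, adjusted p = 1.96e-09). All 4 genes separated the groups.

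The chains of collagen VI, a beaded filament around cells that is built from 3 different chains, moved in opposite directions. Col6a1 fell from 416, 475 and 586 CPM to 88.6, 113, 128 and 120.5 CPM (log2 fold change -2.05 ± 0.13, adjusted p = 6.25e-09). Col6a2 fell alongside, from 140.4, 149 and 167 CPM to 29.3, 34, 40.4 and 35.9 CPM (log2 fold change -2.04 ± 0.13, adjusted p = 7.97e-09). Col6a3, named after its values were seen, rose from 726, 1039 and 997 CPM to 2101, 2114, 2042 and 2002 CPM (log2 fold change 1.24 ± 0.25, adjusted p = 0.00156). No library of one group reached into the other for any of the 3 genes, and epithelial RNA could supply at most 1.63% of their vehicle levels. After subtraction the 2 falls remained called in both fits, and the log2 fold change of Col6a3 was 0.92 with an adjusted p of 0.193 after subtraction, and 0.97 with 0.0207 in the 7 libraries alone.

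**Figure D4:**
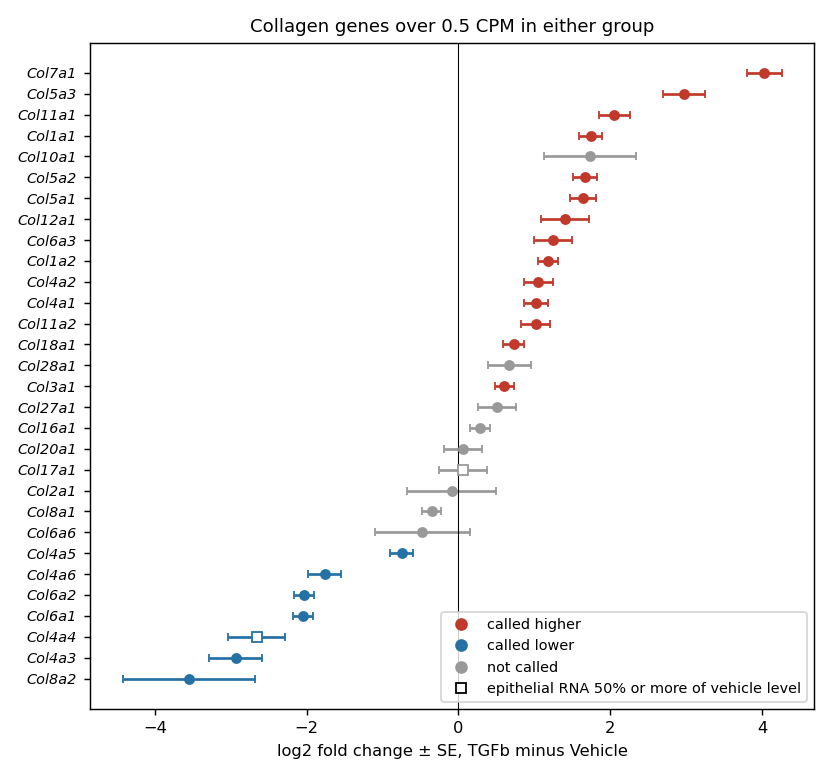
Log2 fold change (TGFb minus Vehicle) with its SE for the 30 collagen genes over 0.5 CPM in either group, sorted by size. Red points were called higher, blue lower and grey not called, open squares mark genes for which epithelial RNA could supply at least 50% of the vehicle level. Col7a1 is highest at 4.03, Col6a1 and Col6a2 lie near -2, and Col6a3 at 1.24.

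Genes that process and cross-link collagen were called in one direction almost throughout, with 13 of 30 higher and 1 lower and a median log2 fold change of 0.37. Lox, the lysyl oxidase that cross-links collagen and elastin, was at 105, 124 and 86.4 CPM in vehicle and 337, 282, 238 and 186 CPM with TGF-β (log2 fold change 1.36 ± 0.15, adjusted p = 2.76e-06). Bmp1, the procollagen C-proteinase, had 189, 188 and 210.1 and 338, 331, 379 and 395 CPM (log2 fold change 0.98 ± 0.14, adjusted p = 3.83e-05). Serpinh1, the collagen chaperone HSP47, had 632, 623 and 663 and 999, 959, 1254 and 1159 CPM (log2 fold change 0.92 ± 0.13, adjusted p = 6.42e-05). These enzymes and the chaperone had smaller log2 fold changes than Col1a1, Col5a3, Col11a1 and Col7a1, and no group overlapped. Creb3l1, a membrane-bound factor that drives collagen secretion, also rose (log2 fold change 1.39 ± 0.17, adjusted p = 9.17e-06, 1.29 with an adjusted p of 0.107 after subtraction, and 1.32 with 0.00494 in the 7 libraries alone), as did P3h1, a prolyl 3-hydroxylase (0.81 ± 0.12, adjusted p = 7.96e-05). The only member that fell, P3h2, had 127% of its vehicle level within the epithelial share. Few of these calls were kept after subtraction in the 7 libraries alone, where 3 members were higher.

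Elastic fibre genes (6 of 15 higher, 4 lower) and matrix glycoproteins (13 of 42 higher, 7 lower) changed in both directions, and the sign of both medians depended on the scaling. Fbn1, fibrillin, the scaffold of elastic fibres, rose from 199, 338 and 251 CPM to 1140.2, 1157, 1083 and 826 CPM (log2 fold change 2.09 ± 0.29, adjusted p = 3.65e-05). Eln, tropoelastin, remained low, at 0.0787, 0.155 and 0.192 CPM against 2.36, 3.43, 3.49 and 3.48 CPM (log2 fold change 4.61 ± 0.70, adjusted p = 9.65e-05). Fn1, fibronectin, was at 6409, 9407 and 9097 CPM and 18483, 18609, 19376 and 17726 CPM (log2 fold change 1.26 ± 0.28, adjusted p = 0.00293, 0.93 with an adjusted p of 0.241 after subtraction, and 0.97 with 0.0485 in the 7 libraries alone). Each of these had every TGF-β library above every vehicle library. Postn, periostin, had 195 reads over the 4 TGF-β libraries against 1 read over the 3 vehicle libraries, a ratio of CPM of 134 (95% counting interval 23.8 to 5333). Fmod, fibromodulin, had 0 reads in vehicle and was at least 2.90-fold higher with TGF-β, against a floor of 3 reads per library, although its call was lost without mouse 1 (0.0664).

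Other matrix genes fell steeply. Tnxb, tenascin-X, which spaces collagen fibrils, went from 40.4, 46.4 and 51.97 CPM to 1.46, 2.198, 4.04 and 3.06 CPM (log2 fold change -4.11 ± 0.25, adjusted p = 3.89e-09). Prelp, a small leucine-rich proteoglycan, went from 6.14, 11.1 and 6.6 CPM to 0.244, 0.5495, 0.184 and 0.12 CPM (log2 fold change -4.73 ± 0.46, adjusted p = 7.44e-07). Ccn3, a CCN family member known as an opponent of CCN2, went from 92.5, 90.2 and 107 CPM to 12.5, 18.4, 14.9 and 21.2 CPM (log2 fold change -2.44 ± 0.14, adjusted p = 3.02e-09). All 3 were fibroblast genes, with at most 2.02% of the vehicle level open to epithelial RNA, and their groups lay far apart. Svep1, an extracellular matrix protein with many CCP repeats, also fell (log2 fold change -2.29 ± 0.26, adjusted p = 3.90e-06).

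Matrix proteases and inhibitors were called in both directions, 14 of 45 higher and 17 lower (against 6.39% and 12.8% of all genes). Adamts6, a secreted metalloproteinase, was at 5.11, 9.29 and 4.68 CPM in vehicle and 34.8, 34.8, 33.3 and 24.4 CPM with TGF-β (log2 fold change 2.41 ± 0.28, adjusted p = 5.15e-06). Mmp3, stromelysin, fell from 23.6, 22.4 and 18.1 CPM to 1.87, 4.396, 3.68 and 2.52 CPM (log2 fold change -2.71 ± 0.26, adjusted p = 4.80e-07). Dpp4, a surface peptidase of some fibroblast subsets, fell from 13.2, 16.4 and 10.6 CPM to 0, 1.51, 0.306 and 0.9599 CPM (log2 fold change -4.62 ± 0.38, adjusted p = 8.99e-08), with 38.9% of the vehicle level open to epithelial RNA. The first 2 were fibroblast genes by their Epcam+ levels, the third was not.

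Of 38 factors that act on or support the epithelium, 15 were lower and 9 higher, with a median log2 fold change of -0.44, but 9 of the 15 were not fibroblast-high (of the tested genes that were not, 3.18% were higher and 19.7% lower). Among the 22 fibroblast-high members 8 rose and 6 fell, with a median of 0.20. Fgf10, the mesenchymal ligand of epithelial FGFR2, was at 22.3, 23.1 and 14.1 CPM in vehicle and 5.604, 7.28, 6.93 and 4.08 CPM in TGF-β libraries (log2 fold change -1.72 ± 0.16, adjusted p = 4.91e-07). Epithelial RNA could supply 0.988% of its vehicle level, and all TGF-β libraries lay below all vehicle libraries. Fgf7, keratinocyte growth factor, had 100.2, 113 and 62.8 CPM and 74.2, 88.7, 65.2 and 48.1 CPM, with groups that overlapped (log2 fold change -0.41 ± 0.15, adjusted p = 0.0677, -0.75 with an adjusted p of 0.0277 after subtraction, and -0.75 with 0.0317 in the 7 libraries alone). Hgf, hepatocyte growth factor, had 109, 132 and 80.03 CPM and 86.01, 87.5, 46.6 and 62.5 CPM (log2 fold change -0.62 ± 0.18, adjusted p = 0.0244), overlapping groups and a call that was lost without mouse 2, 3 or 4 and without the mouse block (0.217). Gas6, a ligand of the TAM receptors, fell from 22.2, 19.5 and 19.3 CPM to 2.84, 2.27, 2.27 and 1.92 CPM (log2 fold change -3.11 ± 0.20, adjusted p = 7.93e-09), and Ptn, pleiotrophin, from 33.1, 22.3 and 20.3 to 2.92, 4.95, 3.68 and 3.12 CPM (log2 fold change -2.69 ± 0.26, adjusted p = 5.27e-07). Epithelial RNA could supply 24.1% of the vehicle level of Gas6, which was not fibroblast-high, and 3.26% of that of Ptn.

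Other secreted factors rose. Pdgfa, a mitogen for mesenchymal cells, was at 72.1, 48.1 and 55.8 CPM in vehicle and 273, 234, 298 and 319.8 CPM with TGF-β (log2 fold change 2.49 ± 0.28, adjusted p = 3.57e-06). Vegfa, the vascular growth factor, had 188, 247 and 222 CPM and 555, 589.7, 608 and 535 CPM (log2 fold change 1.497 ± 0.13, adjusted p = 1.35e-07). Both groups were apart, with 10.2% and 7.72% of the vehicle levels open to epithelial RNA.

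The EGF receptor ligands Areg and Tgfa and the alarmin Il33 were largely within reach of the epithelial share. Areg, amphiregulin, was at 35.8, 33.2 and 44.5 CPM in vehicle and 14.8, 21.6, 13.97 and 17.04 CPM in TGF-β libraries (log2 fold change -1.06 ± 0.20, adjusted p = 0.00104). Tgfa had 6.22, 7.74 and 13.01 CPM and 0.975, 1.85, 0.245 and 1.08 CPM (log2 fold change -3.07 ± 0.36, adjusted p = 6.52e-06). Il33 had 34.1, 36.2 and 33.4 CPM and 0.893, 3.71, 1.41 and 1.86 CPM (log2 fold change -4.22 ± 0.23, adjusted p = 1.86e-09). Each was lower in all TGF-β libraries, and epithelial RNA could supply 88.2%, 123% and 110.0% of the respective vehicle level. After subtraction the signs of Areg (1.64, adjusted p = 0.811) and Tgfa (6.32, adjusted p = 0.663) turned without a call, as they did in the other fits after subtraction, so a change within the fibroblasts was not detectable for these 2 genes. The log2 fold change of Il33 was -5.21 with an adjusted p of 0.217 after subtraction, and -4.94 with 0.00181 in the 7 libraries alone.

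Of 38 Wnt pathway genes tested, 4 rose and 9 fell (against 6.39% and 12.8% of all genes). Wnt5a, a non-canonical ligand, was at 68.1, 76.9 and 59.7 CPM and 94.8, 91.4, 89.8 and 79.6 CPM (log2 fold change 0.49 ± 0.12, adjusted p = 0.008, 0.17 with an adjusted p of 0.681 after subtraction, and 0.17 with 0.713 in the 7 libraries alone, and an adjusted p of 0.0601 without mouse 4). The other 3 that rose, named after their values were seen, were Lef1, a nuclear effector (log2 fold change 1.54 ± 0.21, adjusted p = 3.30e-05), the ligand gene Wnt9a (1.39 ± 0.19, adjusted p = 4.29e-05) and the receptor gene Fzd2 (0.65 ± 0.16, adjusted p = 0.00751, 0.34 with an adjusted p of 0.537 after subtraction, and 0.39 with 0.433 in the 7 libraries alone). Nkd1, a feedback inhibitor and target of β-catenin signalling, fell from 8.58, 9.21 and 10.6 CPM to 0.0812, 0.206, 0.552 and 0.05999 CPM (log2 fold change -5.42 ± 0.42, adjusted p = 5.00e-08). Notum, a secreted Wnt deacylase and likewise a target, was at 1.101, 1.32 and 1.79 and 0.325, 0.343, 0.245 and 0.18 CPM (log2 fold change -2.36 ± 0.48, adjusted p = 0.00168, 0.0595 without mouse 4). The feedback genes Nkd1 and Notum thus went down in all TGF-β libraries while Lef1 went up. Wnt2 had a mean count under the minimum of 1 and was not tested.

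Complement and other innate defence genes fell more often than they rose. Of 46 cytokine, chemokine and defence genes tested, 24 were lower and 4 higher, with a median log2 fold change of -1.63, and among the 35 that were higher in fibroblast than in Epcam+ vehicle libraries 17 fell and 4 rose. C3 (ENSMUSG00000024164), the central complement component, was at 1026, 1037 and 1142 CPM in the vehicle libraries and 20.1, 26.7, 23.5 and 25.9 CPM in the TGF-β libraries (log2 fold change -5.43 ± 0.18, adjusted p = 1.23e-11). C4b, which joins C3 in the convertase, had 85.8, 88.1 and 91.2 CPM and 1.46, 1.99, 2.27 and 1.86 CPM (log2 fold change -5.47 ± 0.16, adjusted p = 4.09e-12). C1s1 and C1ra, the proteases of the C1 complex, stood at 476, 475 and 377 CPM against 37.9, 37.8, 31.6 and 30.5 CPM and at 151, 137 and 134 CPM against 10.1, 12.4, 11.3 and 11.4 CPM (log2 fold changes -3.64 ± 0.13 and -3.58 ± 0.13, both with an adjusted p of 1.34e-11). The replicates of each group lay close together and the groups far apart. Epithelial RNA could supply 5.88% of the vehicle level of C3 and at most 1.49% of the others. All 4 calls held in each of 17 alternatives, subtraction included.

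Serpina3n, an acute phase protease inhibitor, fell from 30.2, 22.4 and 25.4 CPM to 0.731, 0.687, 0.735 and 0.7799 CPM (log2 fold change -5.07 ± 0.19, adjusted p = 1.42e-11). Enpp2, autotaxin, which makes lysophosphatidic acid, fell from 229.9, 259.5 and 193 CPM to 13.4, 11.8, 9.68 and 10.9 CPM (log2 fold change -4.25 ± 0.15, adjusted p = 1.34e-11). Lcn2, lipocalin, was at 10.3, 12.8 and 13.3 CPM and 0.0812, 1.24, 0.613 and 0.36 CPM (log2 fold change -4.38 ± 0.32, adjusted p = 3.14e-08, 18.5% open to epithelial RNA). In all 3 the groups were far apart. Saa3, serum amyloid A, had no read in any TGF-β library and was at least 8.66-fold lower. Cxcl5, a neutrophil chemokine, fell (log2 fold change -6.02 ± 0.39, adjusted p = 7.27e-09), with 51.3% of its vehicle level within the epithelial share. Its log2 fold change was -15.84 with an adjusted p of 0.16 after subtraction, and -11.46 with 4.81e-06 in the 7 libraries alone. Il6 was at 1.57, 2.63 and 4.16 CPM and 2.03, 2.82, 1.29 and 1.8 CPM, with overlapping groups (log2 fold change -0.51 ± 0.51, adjusted p = 0.574). The 4 members that rose were Il11 and, named after their values were seen, Il1rl1, the IL-33 receptor (37.9, 57.6 and 42.9 CPM against 87.7, 123, 102 and 82.2 CPM, log2 fold change 1.16 ± 0.14, adjusted p = 8.32e-06), and the chemokine genes Ccl11 and Ccl17, which stayed under 1.5 CPM in every one of the 7 libraries.

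Of 37 interferon-stimulated genes tested, 14 fell (against 12.8% of all genes), 11 of them among the 29 fibroblast-high members, and the median log2 fold change was -0.72. The edgeR test called 0 higher, with 0 at an unadjusted p under 0.05 and 0 by DESeq2. Gbp2, a guanylate-binding protein, was at 89.6, 114 and 163 CPM in vehicle and 20.9, 35.9, 24.6 and 34.7 CPM with TGF-β (log2 fold change -2.04 ± 0.13, adjusted p = 5.45e-09). Its relative Gbp3 had 19.4, 17.9 and 29.5 CPM and 4.95, 4.95, 2.94 and 2.94 CPM (log2 fold change -2.45 ± 0.22, adjusted p = 2.60e-07). Gbp5 had 3 reads over the TGF-β libraries against 200 over the vehicle libraries, a ratio of 96.8 between the CPM (95% counting interval 32.6 to 473), most of them in the vehicle library of mouse 4 (0.472, 1.702 and 11.02 CPM in the 3 vehicle libraries). These genes share sequence within their family, and how the counting divided reads between such copies is not stated.

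Of the genes of lipid-storing fibroblasts, 0 of 23 rose and 11 fell by the edgeR test, 5 of them among the 11 fibroblast-high members. At an unadjusted p under 0.05, 1 member was higher, and DESeq2 called 0 higher. Cd36, a fatty acid transporter, went from 138, 135 and 131 CPM to 2.76, 8.04, 1.23 and 3.36 CPM (log2 fold change -5.38 ± 0.28, adjusted p = 9.33e-10), and Scd1, a stearoyl-CoA desaturase, from 533, 937 and 849 to 85.8, 197, 99.2 and 112 CPM (log2 fold change -2.71 ± 0.17, adjusted p = 5.21e-09), with 76.5% and 55.96% of the vehicle levels open to epithelial RNA. The log2 fold change of Cd36 was -5.87 with an adjusted p of 0.0648 after subtraction, and -6.89 with 7.52e-05 in the 7 libraries alone. That of Scd1 was -2.23 with an adjusted p of 0.0342 after subtraction, and -2.14 with 2.25e-04 in the 7 libraries alone. With the share from Y-linked genes the call of Scd1 was lost (-2.20, adjusted p = 0.317). Fabp4, a fatty acid binding protein of adipocytes, was low and fell, from 2.99, 0.929 and 0.705 CPM to 0.325, 0.275, 0.0613 and 0.12 CPM (log2 fold change -2.75 ± 0.52, adjusted p = 8.24e-04), with 2.11% open to it.

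Several of the genes with the smallest adjusted p belonged to none of these groups. Dmp1, a matrix phosphoprotein best known from bone, had 0.944, 2.01 and 1.22 CPM in vehicle and 224, 207, 204 and 249 CPM in TGF-β libraries (log2 fold change 7.52 ± 0.28, adjusted p = 1.88e-11). Sema7a, a membrane-anchored semaphorin, had 3.93, 5.65 and 5.83 CPM and 177, 173, 181 and 162 CPM (log2 fold change 5.26 ± 0.19, adjusted p = 1.34e-11). Megf10, an engulfment receptor, had 14.5, 18.5 and 13.9 CPM and 203, 164, 153 and 145 CPM (log2 fold change 3.58 ± 0.20, adjusted p = 2.21e-09). All 3 rose from low levels with tight replicates. Ncam1, the neural cell adhesion molecule, was at 40.5, 58.2 and 57.99 CPM and 320.0, 298, 337 and 303 CPM (log2 fold change 2.75 ± 0.17, adjusted p = 5.69e-09), and Cdh11, the mesenchymal cadherin, at 58.1, 80.01 and 52.99 CPM and 340.3, 327, 269 and 243 CPM (log2 fold change 2.30 ± 0.15, adjusted p = 9.23e-09). Aqp1, a water channel, fell from 108, 112 and 114 CPM to 14.4, 20.1, 24.3 and 17.4 CPM (log2 fold change -2.49 ± 0.15, adjusted p = 3.51e-09).

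**Figure D5:**
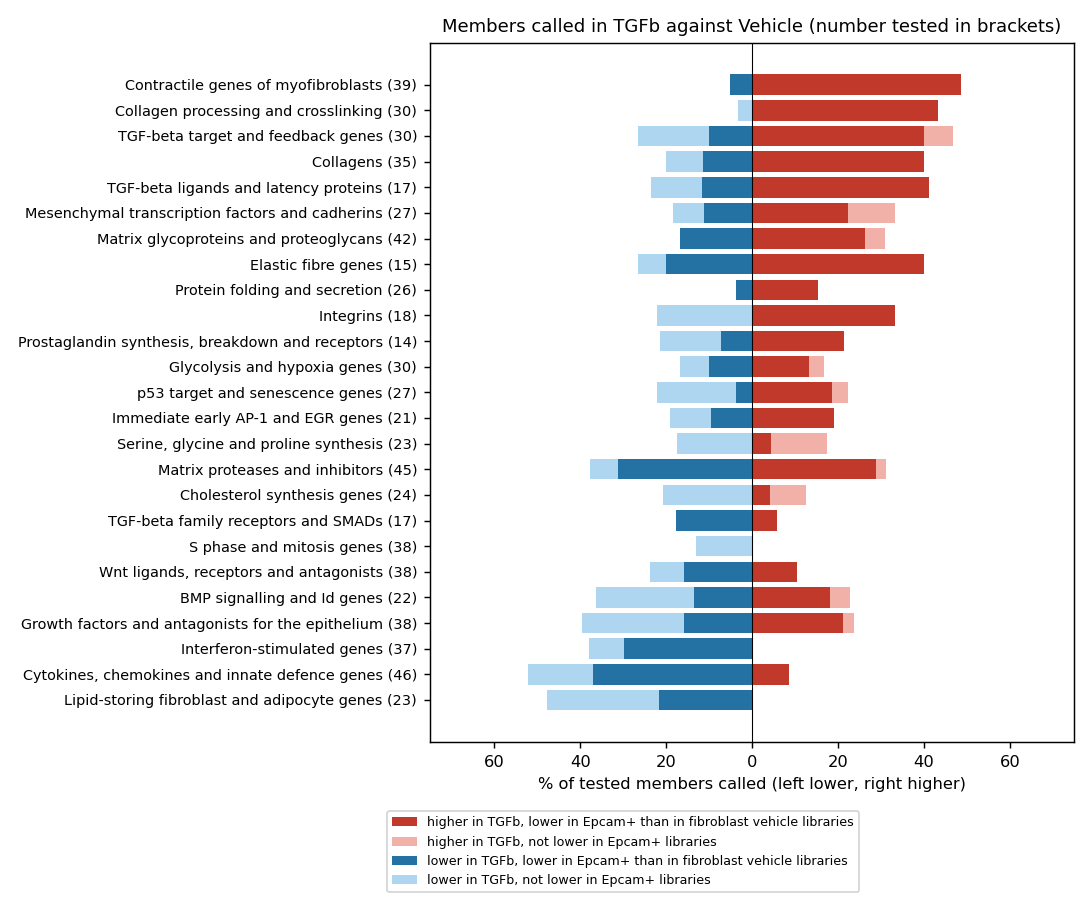
Percentage of the tested members of 25 gene lists that were called higher (right, red) or lower (left, blue) with TGF-β. Dark bars are members that were lower in Epcam+ than in fibroblast vehicle libraries and pale bars the rest. Contractile genes lead on the right with 19 of 39 members, all dark, and lipid, cytokine and interferon lists have nearly all their calls on the left.

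IPFc contains TGF-β among its 9 factors, and its CCL206 libraries held 11.4% to 32.5% epithelial RNA, a share like that of the vehicle libraries, so it was set beside TGF-β alone. The contrast used the same TGF-β libraries as above, and 3141 of 18048 genes (17.4%) differed. Acta2 lay at 39.3 to 70.6 CPM in the 4 IPFc libraries, around the vehicle range, and TGF-β libraries were higher by 3.16 ± 0.12 on the log2 scale (adjusted p = 1.98e-11). Itgb3, at 40.7 to 53.5 CPM with IPFc, stood between vehicle and TGF-β (TGF-β minus IPFc 2.26 ± 0.13, adjusted p = 1.63e-09). Lox was nearer to TGF-β with 160.1 to 231 CPM (difference 0.44 ± 0.13, adjusted p = 0.0259). Of the contractile list, 21 of 39 members were higher with TGF-β than with IPFc and 1 lower (5.33% and 12.1% of all genes). C3 went the other way, at 1964 to 2445 CPM with IPFc, above every vehicle library, and TGF-β minus IPFc was -6.50 ± 0.18 (adjusted p = 8.97e-13). C4b had 36.4 to 41.4 CPM with IPFc, under every vehicle library but far over TGF-β (difference -4.26 ± 0.15, adjusted p = 1.69e-11). Ccl11 was at 0.542 to 1.03 CPM with IPFc, a range that the TGF-β libraries overlapped (difference 0.27 ± 0.54, adjusted p = 0.827).

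The dose of TGF-β within IPFc is not given in the labels, so the 2 treatments are set side by side and not as matched doses. EC contains no TGF-β and its libraries held 38.3% to 60.3% epithelial RNA, and 6392 genes (35.4%) differed from TGF-β. Acta2 was at 22.8 to 41.2 CPM, Itgb3 at 14.7 to 21.9 CPM and Col7a1 at 8.995 to 35.4 CPM with EC, all far under TGF-β (differences 3.90 ± 0.12, 3.61 ± 0.14 and 4.72 ± 0.21, adjusted p = 1.88e-12, 8.20e-12 and 4.16e-11). C3 was at 1433 to 2894 CPM with EC, and TGF-β minus EC was -6.49 ± 0.18 on the log2 scale (adjusted p = 1.82e-12).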

How the data were processed

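RNA from the Epcam- (CCL206) and Epcam+ fractions was sequenced after a NEBNext Ultra II Directional preparation. The authors trimmed reads with Trimmomatic 0.30 and deposited whole-number read counts per Ensembl gene, not normalized, without their own filter on genes with a mean count below 1. The labels name the build GRCm39 and the published methods GRCm38, so the only coordinates given are those of the promoter windows. The aligner, the counter and its use of strand are not given in the sources used here, and reads of paralogs and overlapping genes may have been divided between them. Reads carry no molecular identifiers, so counting intervals and floors cover counting error only. Promoter windows come from RefSeq (GRCm38.p6).

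All 15 CCL206 libraries (5113828 to 18447405 reads) were fitted with edgeR 4.0.16 in R 4.3.3 (quasi-likelihood F test, two-sided, TMM, mouse as a block), over the 18048 of 55487 genes with a mean count of at least 1, with Benjamini-Hochberg adjusted p-values and a threshold of 0.05. Spread was pooled over the 4 treatments (biological coefficient of variation 16.9%, 8 residual degrees of freedom). The TGF-β library of mouse 2, which has no vehicle partner, entered through the block. Libraries of 1 mouse share its epithelial cells by the labels, and deviations of vehicle and TGF-β libraries from their group means correlated at -0.096 to 0.25 within a mouse (3 pairs). Between different mice they correlated at -0.24 to 0.18, a range that overlaps the first. No library repeated another. Levels are plain CPM, and fold changes come from the fit. On simulated counts for TGF-β against vehicle (17770 genes tested), 54% of 50 genes raised 2-fold, 68.8% of 48 lowered 2-fold, 78% of 50 raised 4-fold and 81.6% of 49 lowered 4-fold were recovered. The alternatives were no block, vehicle and TGF-β libraries alone, DESeq2 size factors, scaling to 1695 fibroblast-borne genes, other low-count filters, DESeq2 1.42.0, robust dispersion, subtraction of the epithelial share and leaving out each mouse.

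The members and gene lists were chosen with earlier results of these data known. Named genes were at most 8 called members of each pathway list with the largest fold change (6 for other lists), the genes with the smallest adjusted p per direction, and a fixed set of readouts and markers, and others are said to have been chosen after their values were seen. A few items that this rule would name are not reported here.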

Additional observations from a re-analysis of the deposited data

Results flagged for a closer look

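In 129 groups of 4 TGF-β libraries checked (the named genes and the epithelial share by both measures), 7 held a library far from the other 3 by Dixon's criterion, which chance alone meets in about 1 group in 20. Pycr1, of proline synthesis, reached 14.8 CPM in mouse 3 against 11.3 to 11.7 CPM in the other TGF-β libraries. Mouse 4 was high for Edn1 (1.68 CPM against 0.893 to 0.981) and Bmp4 (5.04 CPM against 3.82 to 3.98), and it was low for Adamts6 (24.4 CPM against 33.3 to 34.8) and Fhl1 (11.3 CPM against 15.8 to 16.5). Tnnt2 was low in mouse 2 (99.7 CPM against 136 to 142) and Eln in mouse 1 (2.36 CPM against 3.43 to 3.49). The TGF-β libraries of mice 2 and 4 held the most epithelial RNA of the 4, at 2.88% and 3.804%, and the part this plays in these values was not tested. Except for Fhl1 and Pycr1, these genes stayed called when the mouse concerned was left out.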

How the results depend on the processing

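The number of calls against vehicle, 3457 in the reported fit, stayed within 1.5 times in 12 of 18 alternatives, at 2875 to 4467 calls. Subtracting the epithelial share left 828 calls against vehicle, 644 against IPFc, 1347 against EC and 156 list members (326 of 696 list genes in the reported fit), or 895, 745, 1280 and 164 with the share from Y-linked genes. In vehicle and TGF-β libraries alone, subtraction with the replicate block, chosen after seeing the data, left 1184 calls (525 higher, 659 lower, 1046 shared with the reported fit) and 202 list members. Fibroblast-high genes alone held 1611 calls. Leaving out a mouse gave 2148 to 4089 calls against vehicle, with 2148 without mouse 3 and 2225 without mouse 4, 1985 to 3786 against IPFc (1985 without mouse 4, 2045 without mouse 3), 4240 to 6667 against EC (4240 without mouse 4), 252 to 359 list members, and a share difference of -22.5 to -16.4 percentage points. Without the replicate block 2914 genes were called, and it changed the calls of Hgf, Pycr1, Mrtfa, Tgfb2, Ltbp1 and Fzd2 among the named genes. Without the EC libraries, also chosen later, 4467 were called, and DESeq2 called 3923. Of 2153 alternative values for 127 named genes, 2016 kept direction and side of the threshold, 110 lost the call, 13 gained one and 14 changed sign. Log2 fold changes turned after subtraction by markers for Tgfa (6.32), Areg (1.64), P3h2 (4.76) and Tgfb2 (0.99), by Y-linked genes for Tgfa (0.85), Areg (1.22), Tgfb2 (0.68) and Epcam (1.91), and in the 7 libraries for Tgfa (3.90), Areg (1.59), Tgfb2 (1.29) and Tgfbr1 (0.15), none with a call. Tgfbr2 turned with fibroblast-borne scaling (-0.025) and Ptprc without replicate 1 (0.036, with -0.90 to 0.036 over the mice left out). For genes whose vehicle level was mostly epithelial the subtraction leaves few reads, so their fibroblast level could not be resolved. Of 527 list counts, 435 stayed within 1.5 times the reported one.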

Other observations

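Lists for the general state of the cells are given beside the background of 6.39% higher and 12.8% lower. Of 38 S phase and mitosis genes, 5 were lower and 0 higher by edgeR (1 higher at an unadjusted p under 0.05, 0 by DESeq2), in a line arrested with mitomycin C. Of 27 p53 target and senescence genes 6 were higher and 6 lower. Pmaip1 (NOXA), an inducer of cell death, rose from 35.1, 29.6 and 20.4 CPM to 68.8, 74.4, 53.6 and 53.5 CPM (adjusted p = 7.57e-06), and Fas, the death receptor, fell from 39.3, 35.7 and 44.5 CPM to 17.1, 20.9, 14.8 and 12.8 CPM (adjusted p = 5.07e-05). Cholesterol synthesis (3 of 24 higher, 5 lower), glycolysis and hypoxia (5 of 30 higher, 5 lower), protein folding and secretion (4 of 26 higher, 1 lower) and serine, glycine and proline synthesis (4 of 23 higher, 4 lower) moved in both directions. Only 1 S phase and mitosis gene, 2 cholesterol genes and 4 serine, glycine and proline genes were fibroblast-high. Every lower call of these lists was in a member that was not. After subtraction in the 7 libraries alone, 6, 3 and 5 of their members were higher and 0 lower. In the 15 libraries subtraction left 0 calls in each. Aldh18a1, the first enzyme of proline synthesis, rose (log2 fold change 0.76, adjusted p = 0.00122), with 0.82 and an adjusted p of 0.823 after subtraction, and 0.90 and 0.0125 in the 7 libraries alone.

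Of 14 prostaglandin and prostanoid genes tested, 3 were higher and 3 lower. Ptges, the inducible prostaglandin E synthase, was at 72.3, 86.2 and 106 CPM in vehicle and 21.9, 32.8, 35.2 and 24.1 CPM in TGF-β libraries (adjusted p = 5.16e-07), and the prostacyclin receptor gene Ptgir at 10.2, 8.43 and 10.9 CPM and 3.98, 2.27, 3.31 and 2.9996 CPM (adjusted p = 0.000121). Epithelial RNA could supply 24.5% of the vehicle level of Ptges, which was not fibroblast-high, and 0.839% of that of Ptgir. Tbxas1, thromboxane synthase, rose from at most 1.01 CPM to 3.02 to 4.32 CPM (adjusted p = 0.000534), and Ptgs1, cyclooxygenase 1, from 194, 195 and 166 CPM to 317, 286, 282 and 290.5 CPM (adjusted p = 0.000146). No TGF-β library overlapped the vehicle libraries for these 4 genes, although the call of Ptgs1 was lost in 2 of the 3 fits after subtraction (0.0528 and 0.126). Among other cell type markers, Cspg4, the pericyte proteoglycan NG2, rose from 92.4, 122 and 125 CPM to 312, 297, 333 and 351 CPM (adjusted p = 4.29e-05), and Pecam1, an endothelial marker, from 0.155 to 0.384 CPM to 1.62 to 2.64 CPM (adjusted p = 0.000761), while 5 of the 18 endothelial markers were at 0 in all 7 libraries.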
